A study of Arabidopsis thaliana with 8 samples.

Results

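This set holds the transcripts that were well expressed in the met cell cultures and had lower signal in the fum cell cultures. A probe set, the group of array probes that reports one transcript or a few close relatives, was a member where its mean log2 signal in fum minus met was -0.5 or lower, where the highest fum array lay below the lowest met array, and where the met mean was at least 100 signal units. With 3 probe sets set aside by name, 131 of 22746 probe sets other than array controls met the rule. The difference between the groups chose the members, so their differences are given as a description, with no test.

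The arrays were made from total RNA of Arabidopsis thaliana cell cultures of the Ler background (stock NW20), labelled with biotin. There were 4 arrays named fum and 4 named met, each numbered 1 to 4. Both groups were grown at 24 °C, and their medium (Murashige and Skoog) held sucrose, an auxin (NAA) and a cytokinin (kinetin). What fum and met stand for is not spelled out, and neither group is named a control. Whether replicate arrays were made from different cultures is also not stated, so the p-values below cover no more than array-to-array spread, possibly a technical one. The series title concerns core genes that regulate programmed cell death in plants.

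Plant cells carry surface receptors, secrete defence peptides and enzymes, and make phenolic compounds that are stored as sugar conjugates. Receptor kinases with leucine-rich repeats read signals outside the cell, defensins are small cysteine-rich peptides, and glycosyltransferases attach sugars to flavonols and phenolic acids. Heat shock proteins and their co-chaperones hold or refold damaged proteins. Members of all these families were found in the set.

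Of the 131 members, 56 have exactly 1 gene in the annotation used here, 2 have several genes and 73 have none listed. The 56 genes are spread over all 5 chromosomes, with 16 on chromosome 1, 12 on chromosome 2, 10 on chromosome 3, 4 on chromosome 4 and 14 on chromosome 5. Only 2 pairs lie within 10 genes of each other. They are the receptor kinase genes AT1G51820 and AT1G51850 and the defensin genes PDF2.1 (AT2G02120) and LCR68 (AT2G02130), which are next to each other on chromosome 2.

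Differences in the set were mostly moderate. The log2 difference ran from -1.72 to -0.50 with a median of -0.65, which is a signal 1.57 times as high in met. It was -1 or lower in 12 members, and 33 members lay above -0.55, close to the limit of the rule. Member means ran from 32.65 to 2044 in fum and from 101.1 to 3508 in met. Of 6408 probe sets with a met mean of at least 100, 10.3% had all fum arrays below all met arrays, 2.93% had a difference of -0.5 or lower, and 2.04% met the whole rule. In the other direction, 8.51% of probe sets with a fum mean of at least 100 had all fum arrays above all met arrays, and 220 were also higher in fum by 0.5 or more.

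**Figure D1:**
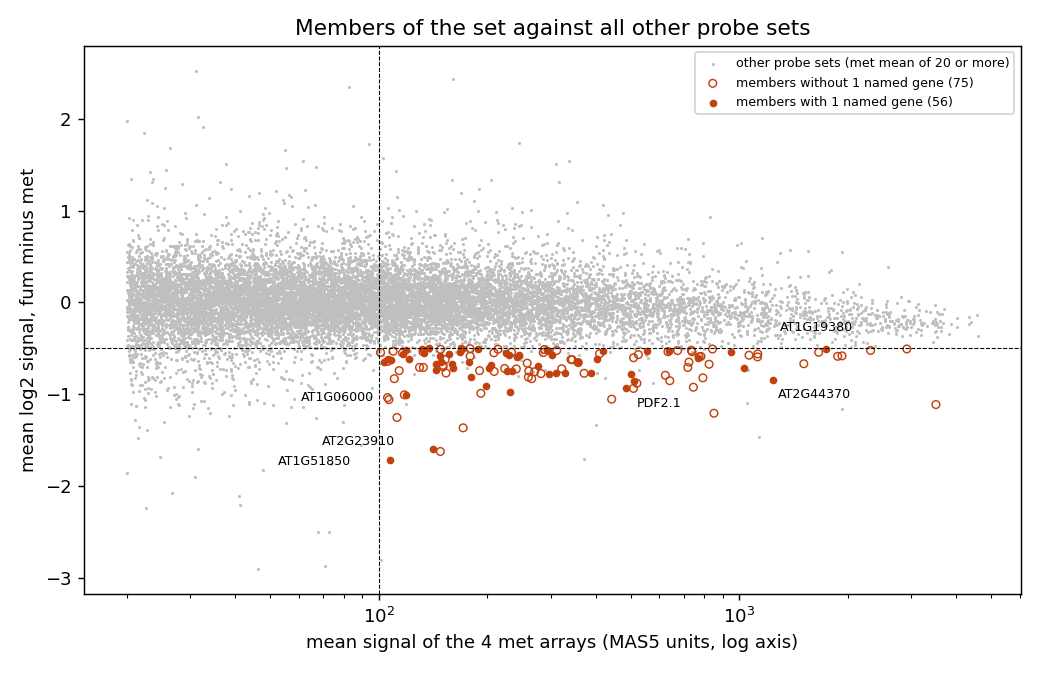
Each point is a probe set, with the mean signal of the 4 met arrays on a log axis and the mean log2 signal of fum minus met on the other axis. Orange points are the 131 members, filled where 1 gene is named, grey points are all other probe sets with a met mean of 20 or more, and dashed lines mark a signal of 100 and a difference of -0.5. Members fill the lower right corner, and the grey cloud lies below 0 at its bright end.

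The gap between the groups was narrow in most members. The lowest met signal was 1.18 times the highest fum signal at the median, at least 1.2 times in 59 members and under 1.1 times in 34. In the limma fit over all 13647 probe sets tested, 89 of the 131 members passed an adjusted p of 0.05, where 1.11% of all probe sets tested passed in that direction, 1.47% passed in the other and 2.57% in either. Among probe sets with a met mean of at least 100, 2.08% passed as lower in fum. The rule used the same contrast, so nothing is read from this count. Just inside the limit on the difference were PR-1-LIKE at -0.5009, AT5G51830 at -0.5016 and AT1G26730 at -0.5035. Just outside were CYTOSLEEPER at -0.4963, 263433_at at -0.4942 and 263134_at at -0.4941. At the limit on level, 246055_at, AT2G01300 and 248625_at had met means of 101.1, 103.1 and 105.7, and AT1G09520, AT5G23760 and AT3G54080 missed it at 99.5, 99.2 and 99.1. At the limit on overlap, the lowest met signal was 1.008 times the highest fum signal in AT1G66310 and LCR68 and 1.011 times in 256022_at. It was 0.995 times in AT1G67920, 0.991 times in 250073_at and 0.990 times in AT1G72730, which are not members.

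One met array stood apart for these members. Relative to each member's own mean over the 8 arrays, the median member stood at -0.31, -0.34, -0.32 and -0.35 on fum replicates 1 to 4 on the log2 scale, and at 0.49, 0.28, 0.28 and 0.27 on met replicates 1 to 4. Met replicate 1 had the highest met signal in 80 of the 131 members. Its signal over the mean of the other met arrays had a median of 1.14 in the members. Over all probe sets with a met mean of at least 100 that median was 1.02. A high met array also raises the met mean that the rule uses. On met replicate 1 the actin control probes at the 3′ end read 12 times those at the 5′ end, against 1.92 to 2.39 times on the other 7 arrays. This ratio is a measure of how complete the RNA or its copy was. Without met replicate 1 the median difference was -0.60 and 99 of the 131 members still met the rule, 40 of them with 1 gene. The part of this array's RNA quality in the differences was not tested.

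**Figure D2:**
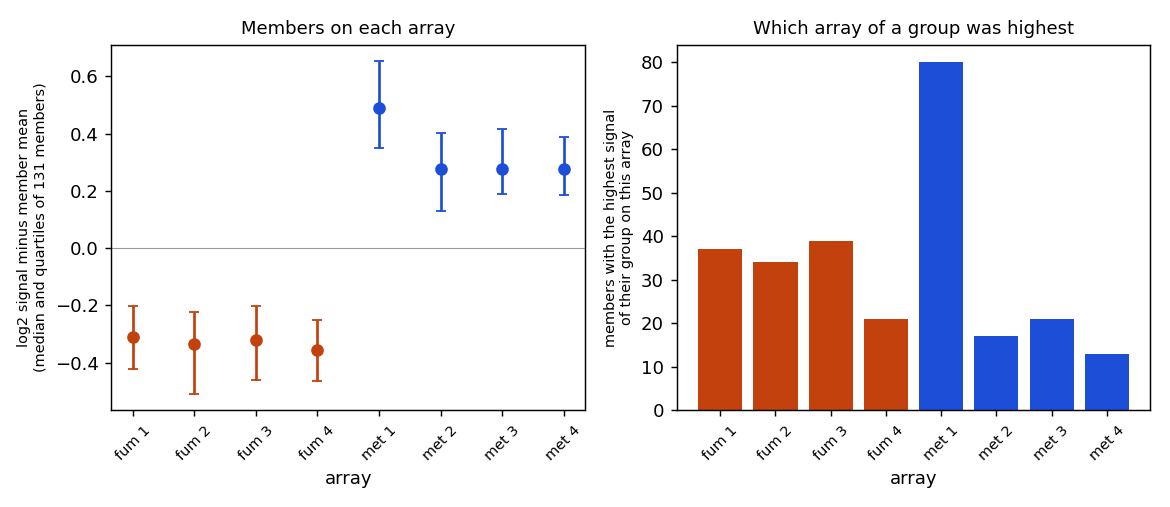
On the left, points are the median over the 131 members of log2 signal minus the member's mean over 8 arrays, with bars to the quartiles, for fum arrays (orange) and met arrays (blue). On the right, bars count the members whose highest signal within their group fell on that array, which was met replicate 1 for 80 members.

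The 25S ribosomal RNA signal also varied. Fum replicate 3 read 157.6, while met replicates 1 and 2 read 824 and 1305, and the other 5 arrays lay between 2806 and 4491. Within those 5 arrays the median difference of the members was -0.61, and within the 3 low arrays, where fum has 1 array, it was -0.70. By the rule itself all 131 members had to have lower means in fum in both subsets, but the size of the difference moved in single members. In the 5 arrays 8 members moved by over 1.5 times, all toward 0. Those with 1 gene were AT5G42830 at -0.48, AT2G29500 at -0.48, AT2G01300 at -0.41, PR-1-LIKE at -0.32 and AT1G66080 at -0.26. In the 3 low arrays 17 members moved by over 1.5 times, 9 of them toward 0. Those with 1 gene that moved toward 0 were UGT84A1 at -0.50, AT3G15260 at -0.42, AQI at -0.41, AT2G41380 at -0.37, AT5G19250 at -0.36 and AT1G66310 at -0.20. Those with 1 gene that moved away from 0 were AT2G01300 at -1.22, AT1G66080 at -0.87, AT5G63150 at -0.83 and PR-1-LIKE at -0.76. The part of the 25S signal in these values was not tested.

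In extracts of whole cultures, fewer cells of a type and less RNA per cell cannot be told apart. Markers of chloroplast-bearing leaf cells with a probe set of their own here (4 of 15) had a summed signal of 633 to 731 on fum arrays and 775 to 901 on met arrays. RCA (Rubisco activase) made up most of the sum, with 382.7 to 464.4 on fum arrays and 470.5 to 588.3 on met arrays. In the other markers the groups overlapped. The log2 differences were -0.29 for RCA, -0.35 for SBPASE, -0.19 for PRK and -0.16 for LHCB4.1. None of these passed the limma fit (adjusted p = 0.155, 0.306, 0.675 and 0.494). Of 9 root and root hair markers, EXPA7 and EXPA18 had a probe set, with summed signals of 11.5 to 59.4 on fum arrays and 16.7 to 36.5 on met arrays. No marker of tracheary elements or of embryo and seed had a probe set of its own, and the part of such cells in the members' differences was not tested.

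Among the 5 members at the cell surface, the receptor kinase gene AT1G51850 had the deepest difference of the whole set. It had 32.2, 24.2, 42.0 and 32.2 signal units on fum replicates 1 to 4, against 127.3, 124.4, 81.1 and 95.8 on met replicates 1 to 4 (log2 difference -1.72). The groups were far apart, with the lowest met array 1.93 times the highest fum array. Its fum signals were low, and with 16 added to each signal its difference was -1.33. Probe set 266901_at was then deeper, at -1.35. Its neighbour AT1G51820, a receptor kinase of the same leucine-rich repeat family, had 269.2, 358.3, 304.3 and 234.4 in fum and 494.3, 393.1, 386.6 and 402.7 in met (-0.53). Its groups were close, since fum replicate 2 lay just under the lower met arrays, and without met replicate 1 its difference was -0.45.

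AT5G48540 encodes a secreted protein with cysteine-rich repeats of the kind found in some receptor kinases. It had 160.9, 123.0, 132.4 and 127.0 in fum, against 230.3, 237.3, 233.7 and 205.9 in met (-0.75). AT1G33590, a leucine-rich repeat protein, had tight groups, of 442 ± 19.7 in fum and 638 ± 44.7 in met (-0.53, SD and n = 4 each). AT5G19250, a predicted glycoprotein anchored to the membrane by a lipid, had 177 ± 48.5 in fum and 296 ± 12.7 in met (-0.79). Here the fum arrays were spread over 127.0 to 237.1 while the met arrays lay between 280.0 and 311.0. Of the defence kinase list, 3 other genes were tested. The immune receptor gene EFR had a log2 difference of 0.34, the kinase gene BIK1 one of 0.23 and AT1G51890 one of -0.01, and none of the 3 passed the limma fit (adjusted p = 0.221, 0.316 and 0.989).

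Of the 7 secreted and wall proteins, the defensin gene PDF2.1 had the deepest difference. It read 254.6, 270.1, 221.8 and 256.0 in fum and 608.6, 392.6, 451.0 and 489.9 in met (-0.94). Its neighbour LCR68, also a defensin gene, had 470.8, 395.9, 481.2 and 693.0 in fum, against 947.6, 716.5, 698.6 and 702.2 in met (-0.61). In LCR68 fum replicate 4 reached almost the level of the 3 lower met arrays, so the groups are barely separate. In PDF2.1 the lowest met array was 1.45 times the highest fum array.

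AT5G67460, a glycosyl hydrolase, had 78.3 ± 5.8 in fum and 121.0 ± 16.5 in met (SD, n = 4 each, -0.62). AT3G05910, a pectin acetylesterase, had 160.1 ± 18.7 in fum and 242 ± 25.3 in met (-0.60). The peroxidase gene AT2G41480 (PRX25) had 204 ± 26.2 in fum and 293 ± 51.3 in met (-0.52).

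SBT3.3 encodes a subtilisin-like protease linked to defence priming. It had 138.9, 114.1, 118.6 and 105.1 in fum and 141.1, 165.1, 195.2 and 179.9 in met (-0.51), with met replicate 1 almost as low as fum replicate 1. PR-1-LIKE, a relative of the pathogenesis-related protein PR1, had 97.2 ± 12 in fum and 138 ± 19.9 in met (-0.50). Of the list of PR proteins and chitinases, 3 were tested and 1 passed. It was the chitinase family gene AT4G01700, with 30.5 ± 5.37 in fum and 89.2 ± 9.81 in met (log2 -1.56, limma adjusted p = 0.00124), whose met mean is too low for the set. AT2G43620 had -1.24 and AT2G43570 had -0.16, neither past the fit (limma adjusted p = 0.114 and 0.772).

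The 9 members of specialized metabolism include enzymes for the making and conjugation of phenolic compounds. AT2G23910, which resembles cinnamoyl-CoA reductases, had 63.6, 36.0, 44.9 and 42.6 in fum, against 154.6, 97.8, 176.1 and 138.5 in met (-1.60). AT4G30470, of the same family, had 204.9, 198.1, 182.6 and 184.8 in fum and 353.8, 315.1, 303.8 and 341.4 in met (-0.77). Both had a wide gap, with the lowest met array 1.54 and 1.48 times the highest fum array.

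AT1G06000 encodes a flavonol rhamnosyltransferase, which adds a sugar to flavonols. It had 61.5, 56.5, 55.3 and 60.9 in fum and 109.1, 114.2, 139.2 and 112.5 in met (-1.01), a gap of 1.77 times. CHIL, a chalcone isomerase-like protein that promotes flavonoid production, had 111.6, 115.7, 109.4 and 73.2 in fum and 209.3, 140.0, 211.3 and 160.2 in met (-0.82). UGT84A1, a glucosyltransferase for hydroxycinnamic acids such as sinapate, had 265.1, 181.2, 236.8 and 220.1 in fum and 271.0, 411.9, 421.3 and 450.8 in met (-0.77). For UGT84A1 met replicate 1 was the low met array, close to fum replicate 1, and the difference without it was -0.94.

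AT2G28080, of the glycosyltransferase family, had 136.7, 106.6, 93.4 and 130.9 in fum and 303.9, 199.2, 224.1 and 198.8 in met (-0.98). AT5G42830, an acyltransferase family gene, had 286 ± 59.4 in fum and 502 ± 172 in met (SD, n = 4 each, -0.78). Its met arrays ran from 332.5 to 734.5, and fum replicate 3 at 319.4 was just under the lowest of them. The glutathione transferase gene GSTU27 had 167 ± 22.1 in fum and 277 ± 78.9 in met (-0.70), or -0.52 without met replicate 1, where it read 386.8. AT2G41380, a methyltransferase family gene, had a difference of -0.56.

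Other tested genes of these pathways were few. In the flavonoid list, the flavonoid glucosyltransferase gene UGT78D2 had a log2 difference of -0.33 and the reductase gene DFR one of 0.11. In the phenylpropanoid and lignin list, the acyltransferase gene HCT had -0.05 and the reductase gene CCR2 had 0.21. None of these 4 passed the limma fit (adjusted p from 0.142 to 0.892).

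**Figure D3:**
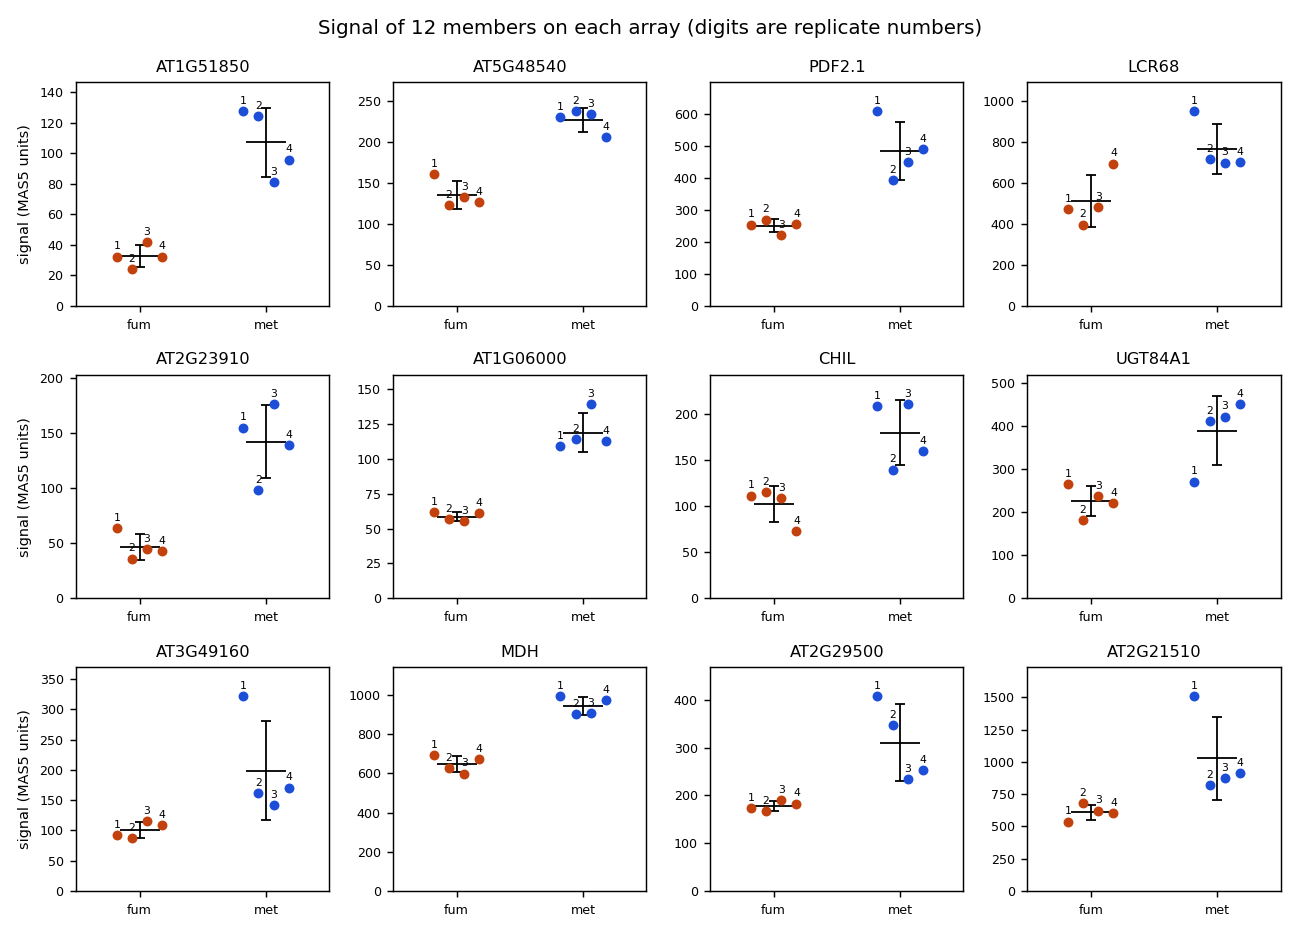
Points are the linear signal of 12 members on each array, fum in orange and met in blue, with the replicate number above each point; horizontal bars are means and error bars are SD (n = 4). The arrays of AT1G51850 and AT1G06000 are far apart between the groups, while those of LCR68 and UGT84A1 nearly meet, and AT3G49160 and AT2G21510 have one high met array, replicate 1.

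Among the 7 members of primary metabolism, redox chemistry and peptide cleavage, AT3G49160, of the pyruvate kinase family, had the deepest difference. It had 92.2, 87.5, 115.5 and 108.8 in fum, against 321.2, 161.2, 142.1 and 170.7 in met (-0.91). Met replicate 1 was 2.03 times the mean of the other met arrays, and without it the difference was -0.65. MDH, the plastid NAD-dependent malate dehydrogenase, had 693.5, 628.5, 598.2 and 672.1 in fum and 992.3, 902.4, 909.0 and 975.5 in met (-0.54). Its groups were tight, with a gap of 1.30 times.

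AT1G64190, a 6-phosphogluconate dehydrogenase of the pentose phosphate pathway, had 166 ± 33.2 in fum and 244 ± 25.4 in met (SD, n = 4 each, -0.58). AT5G51830, of the fructokinase family, had 119.7 ± 14.7 in fum and 169 ± 13.9 in met (-0.50). AT1G65560, of the zinc-binding dehydrogenase family, had 69.5 ± 4.50 in fum and 108.0 ± 13.9 in met (-0.63). The peptidase family genes AQI (aquaporin interactor) and AT5G20660 had differences of -0.67 and -0.66. In the glycolysis list, GAPC2 had -0.09 and TPI had -0.09, and neither passed the limma fit (adjusted p = 0.745 and 0.543).

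The 4 regulators of transcription and 2 phosphatases were modest in level, with met means from 143.6 to 301.5. AT1G33760, of the ethylene response factor family, had 108.1, 105.7, 98.6 and 77.3 in fum and 186.2, 158.4, 180.7 and 118.6 in met (-0.71). AT1G61660, a basic helix-loop-helix factor, had 93.3, 110.5, 95.1 and 98.2 in fum and 129.6, 159.0, 185.5 and 164.6 in met (-0.68). AT1G68670, of a family of MYB-related repressors known from nitrate and phosphate responses, had 205.2, 170.0, 209.5 and 226.0 in fum and 295.5, 337.1, 262.0 and 311.3 in met (-0.57). Of these 3, the groups were closest in AT1G33760, where met replicate 4 at 118.6 was just above fum replicate 1.

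KIWI, a transcriptional coactivator, had 96.6 ± 9.96 in fum and 148 ± 40 in met (SD, n = 4 each, -0.59), and -0.42 without met replicate 1. The protein phosphatase 2C gene AT1G67820 had 85.5 ± 9.52 in fum and 143.6 ± 21.6 in met (-0.74). The other phosphatase gene of that family, AT3G15260, had 115.8, 45.3, 119.7 and 124.8 in fum and 177.5, 144.0, 137.8 and 135.1 in met (-0.65). Its difference rests on fum replicate 2, without which it was -0.30. Of 3 tested WRKY factors, which regulate defence genes, none passed the limma fit, with log2 differences of -0.31 for WRKY22, -0.29 for WRKY53 and 0.43 for WRKY6.

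All 5 members of protein folding and synthesis had their highest met signal on replicate 1, as did 80 of all 131 members and 6 of the 7 in central metabolism. The small heat shock protein gene AT2G29500 had 174.0, 167.0, 190.0 and 183.1 in fum and 407.4, 347.2, 235.0 and 253.9 in met (-0.77). AT2G21510, which encodes a protein with the J domain of co-chaperones, had 536.4, 678.8, 621.6 and 603.1 in fum and 1506, 817.3, 875.3 and 912.8 in met (-0.71). AT1G66080, a relative of the Hikeshi protein that in human cells carries a heat shock chaperone into the nucleus, had 149 ± 4.94 in fum and 229 ± 71.8 in met (SD, n = 4 each, -0.57). In all 3 the fum arrays were closer together than the met arrays.

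Without met replicate 1 these differences were -0.62 for AT2G29500, -0.51 for AT2G21510 and -0.38 for AT1G66080. AT3G55170, a ribosomal protein of the large subunit, had 138 ± 7.29 in fum and 234 ± 36.2 in met (-0.75). AT3G26360, of a ribosomal protein family of the small subunit, had 110.5 ± 7.19 in fum and 178 ± 50.8 in met (-0.65). Of the heat shock list, ROF2 had a log2 difference of -0.49, HSP17.6C (AT1G53540) one of -0.44 and HSP23.5 one of -0.12, and none of the 3 passed the limma fit (adjusted p = 0.0661, 0.132 and 0.509).

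The 2 transport members were near the limits of the rule. AT5G52050 (DTX50), an efflux carrier of the detoxification family, had 89.7, 63.8, 66.0 and 59.2 in fum and 93.5, 100.7, 122.4 and 107.2 in met (-0.62). AT1G26730, related to the phosphate exporter PHO1, had 133.5 ± 14.1 in fum and 189 ± 16.4 in met (SD, n = 4 each, -0.50).

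For 15 members with a gene, no role is stated here or only a domain is known. AT2G44370, with a cysteine- and histidine-rich domain, had 762.2, 708.2, 673.2 and 607.8 in fum and 1090, 1396, 1331 and 1127 in met (-0.84). AT5G11070 had 297.0, 304.9, 263.2 and 248.3 in fum and 680.0, 517.3, 407.1 and 440.6 in met (-0.85). AT5G65660 (-0.71), AT5G18920 (-0.69), AT2G01300 (-0.65) and AT1G43910 (-0.62), an ATPase family gene, followed. The remaining 9, from AT4G35980 at -0.57 to AT1G19380 at -0.51, included AT1G66310, AT3G27210, AT2G24020, AT3G19240, AT5G19860, AT5G63150 and AT3G30450. AT3G30450 is listed as a pseudogene, and its probe set is of the kind that can detect related transcripts. AT1G19380 had the highest met mean of the 56, with 1223 ± 168 in fum and 1733 ± 164 in met (SD, n = 4 each).

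**Figure D4:**
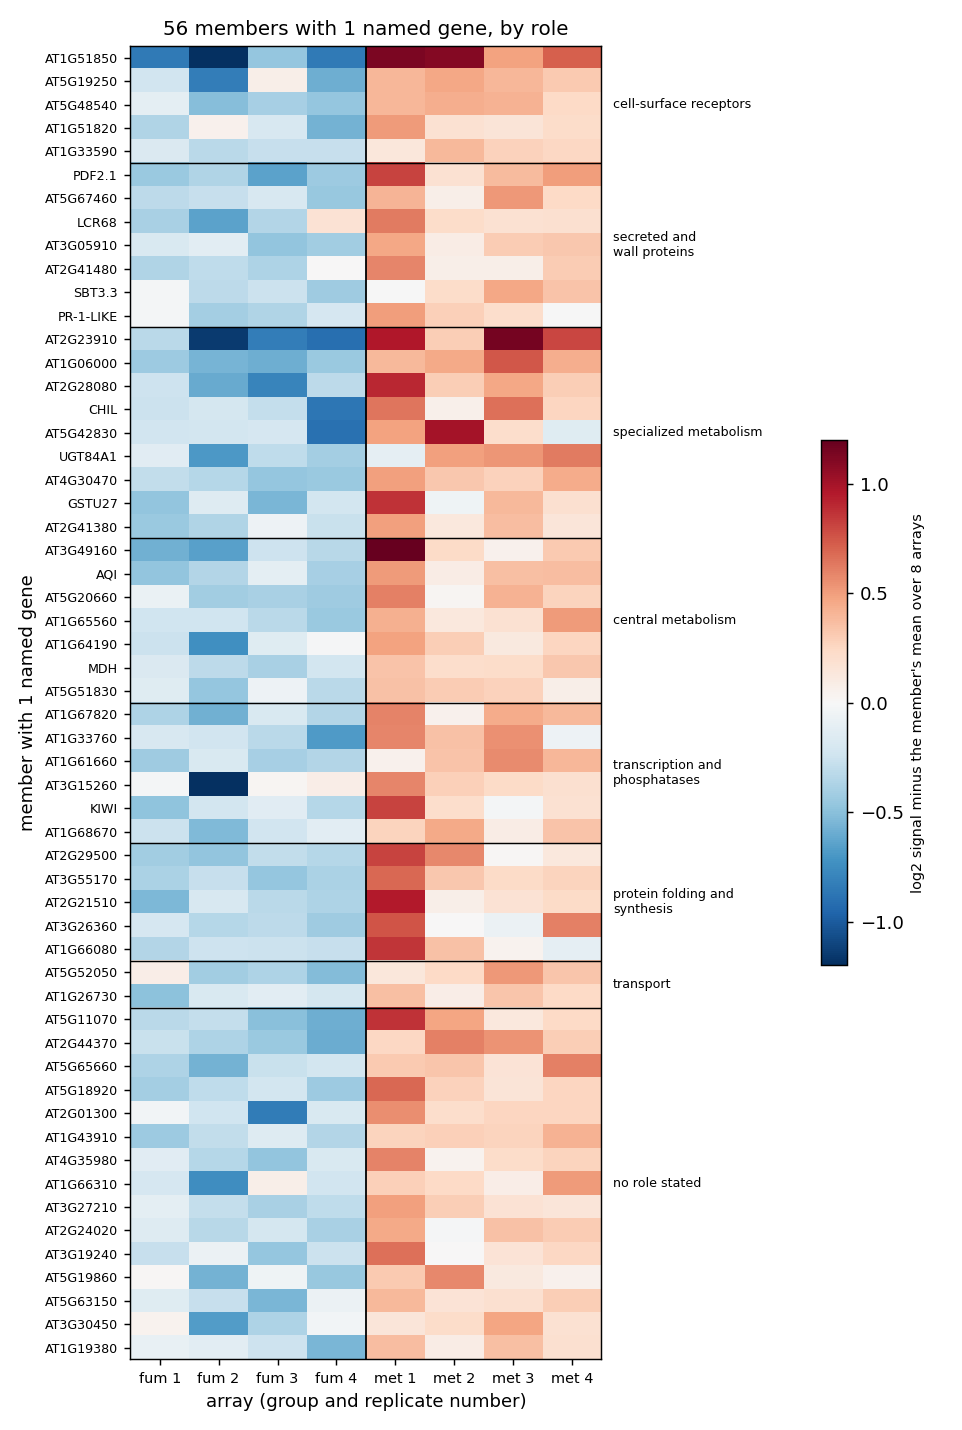
Rows are the 56 members with 1 named gene, grouped by role, and columns are the arrays, fum left of the line and met right of it. Colours give log2 signal minus the member's mean over the 8 arrays. The fum side is mostly blue and the met side mostly red by the rule itself. Met replicate 1 is the deepest red in all 5 members of protein folding and synthesis and in 6 of the 7 of central metabolism.

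The 73 members with no gene listed had a median difference of -0.67, against -0.64 for the 56 with 1 gene. The deepest was 266901_at, with 44.6, 54.1, 32.1 and 56.7 in fum and 233.4, 130.6, 110.6 and 118.1 in met (-1.63). Probe sets 262118_at (-1.37), 252081_at (-1.26) and 252123_at (-1.21) followed. The fifth, 250207_at, was the brightest member in met, with 2128, 1668, 1436 and 1216 in fum and 3811, 2350, 4473 and 3398 in met (-1.11). The 2 probe sets with several genes, 255176_s_at and 249975_s_at, had differences of -0.55 and -0.54 and cannot be assigned to 1 gene.

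Bright probe sets as a whole had lower signal in fum. Of 537 probe sets with a mean signal of at least 1000 over all arrays, 79.7% had a lower mean in fum, with a median log2 difference of -0.15. For 4168 probe sets between 100 and 300 the median was 0.02. The 8 members in the bright class had a median of -0.56. After quantile normalization, which gives all arrays the same distribution, the median of the bright class was -0.01 and that of its 8 members was -0.44. In this class AT1G19380 then stood at -0.39, 261490_at at -0.32 and 250207_at at -0.94. MDH and AT2G44370, whose means over all arrays were below 1000, stood at -0.48 and -0.78. Under that normalization 120 of the 131 members met the rule.

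Over the gene lists as a whole, 56 of 401 loci had a tested probe set of their own and 3 of these were members, AT1G51850, AT1G51820 and AT1G06000. Among the other 53 genes, 34 had lower means in fum, with a median log2 difference of -0.14, against -0.002 for all probe sets tested. Of all probe sets with a mean signal below 100, 43.6% had a lower mean in fum. That share was 47.4% from 100 to 300 and 55.2% from 300 to 1000. The lists were written with earlier results of these data known, so the counts are a description. In the limma fit 2 of the 53 fell and 0 rose at an adjusted p of 0.05. At an unadjusted limma p under 0.05 there were 12 lower and 1 higher. Of all probe sets tested, 8.98% were lower at that limit. The share that were higher was not counted, so nothing is read from 12 against 1. The second to fall, beside AT4G01700, was AT1G33055, a gene of the core response to low oxygen, with 24.3 ± 12.8 in fum and 73.6 ± 9.81 in met (SD, n = 4 each, log2 -1.76, limma adjusted p = 0.0230). Its adjusted p was 0.0684 when fum replicate 1 was left out, 0.0590 when met replicate 3 was and 0.0564 when met replicate 4 was, so it no longer passed in limma. Of the 10 tested genes in that low-oxygen list, 7 had lower means in fum, with a median of -0.36.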

How the data were processed

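The data are 8 expression arrays, 1 per sample. The authors deposited 1 signal intensity per probe set and array, made with MAS5 per the submitters' processing notes (no version given). The intensities are linear and each array has a trimmed mean near 100, and no background setting or detection call is given in the sources used here. MAS5 treats arrays singly, and its dim signals are noisy.

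Values below 0.1 were raised to 0.1 (93 values, 0 in the members) and taken to log2 with no pseudocount. The 64 control probe sets were left out. Means ± SD are of linear signals, and differences are means of log2 signals, fum minus met. The fit over 13647 probe sets above the 40th percentile of mean log2 signal (a signal of 21.1) was made in R 4.3.3 with limma 3.58.1. It had group as its single term and a trended eBayes prior, and its two-sided p-values were adjusted by Benjamini-Hochberg. It was tested on simulated arrays with independent normal values and no effects shared by the probe sets of an array. That test therefore does not show how well changes of the members' size are found in these data.

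Names come from the supplied platform annotation, where 13513 probe sets have 1 gene (13436 of them matched RefSeq of TAIR10.1) and 503 have several. That assembly gave names and gene order only.

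The members and the 26 gene lists (4 of markers) were chosen with earlier results of these data known. Named members follow a rule: the 25 deepest and 10 brightest with 1 gene, list members, neighbours in gene order, members of keyword classes, the 5 deepest without a gene, and those nearest each limit. Without those nearest each limit, this gave 33 of the 56. Of the other 23, PR-1-LIKE, AT5G51830, AT1G26730, AT2G01300 and AT1G66310 were nearest a limit. The rest were added after their values were seen so that all are accounted for. The keyword classes matched only 5 members, and protein identities were not computed. The lists of jasmonate, auxin and cytokinin, nitrogen, and phosphate and sulfate genes, and 3 marker lists, had no tested gene. The ethylene, salicylic acid, sugar starvation, reactive oxygen, cell cycle, cell wall, calcium, abscisic acid, clock and housekeeping lists had no gene that passed.

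Alternatives were quantile normalization, median centring, 16 added to each signal, other filters and priors, a replicate block, array weights, other limits of the rule, and subsets of arrays. The number of arrays limits the precision.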

Additional observations from a re-analysis of the deposited data

Results flagged for a closer look

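In the members named by gene or probe set, 122 groups of 4 arrays were checked for 1 array far from the other 3 (the gap to the nearest array against the range of the group, at Dixon's 95% limit), and 13 were picked out. For independent normal values chance picks out about 1 in 20 groups. These groups share the same arrays and belong to members chosen on these signals. That rate is therefore no yardstick here, and the count is a description. Met replicate 1 was the high array in 6 of them, the array whose actin 3′ to 5′ ratio was 12, and the part of that in these values was not tested. It read 233.4 in 266901_at, 321.2 in AT3G49160, 1506 in AT2G21510, 120.5 in AT2G01300, 947.6 in LCR68 and 494.3 in AT1G51820. The other met arrays of these members lay between 110.6 and 130.6 in 266901_at, 142.1 and 170.7 in AT3G49160, 817.3 and 912.8 in AT2G21510, 95.2 and 98.4 in AT2G01300, 698.6 and 716.5 in LCR68, and 386.6 and 402.7 in AT1G51820.

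Fum replicate 4 was low in CHIL, at 73.2 beside 109.4 to 115.7, and in AT5G42830, at 197.3 beside 312.8 to 319.4. It was high in AT2G41480, at 242.7 beside 187.6 to 196.2. Fum replicate 2 was low in AT3G15260, at 45.3 beside 115.8 to 124.8, and fum replicate 1 was high in AT5G20660, at 265.8 beside 209.8 to 214.3. Met replicate 3 was high in AT1G06000, at 139.2 beside 109.1 to 114.2, and met replicate 4 was high in AT1G43910, at 433.4 beside 391.3 to 396.5.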

How the results depend on the processing

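Every member had a lower mean in fum under each normalization, offset and subset of arrays tried. For the offset and the subsets the rule fixed this in advance, since all fum arrays lay below all met arrays. The median difference over these settings ran from -0.70 to -0.59. The count of 131 became 218 within the 5 arrays with high 25S signal and 374 within the 3 low ones, where fewer arrays make no overlap easier to reach, 12 with a difference of 1 and 81 with a minimum of 200. Leaving out 1 array gave 136 to 170 probe sets, and 215 to 355 for the opposite set of 220. That set became 125 after median centring, 644 in the 3 low arrays, 33 with a difference of 1 and 131 with a minimum of 200.

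Counts from limma moved more. The 89 members that passed became 38 after median centring, 46 without the intensity trend, 1 within the 3 low arrays and 39 with the replicate number as a block, with 34 to 83 when 1 array was left out (49, 55 and 34 without fum replicates 1, 3 and 4, and 45 and 50 without met replicates 3 and 4). The 151 probe sets lower in fum became 52, 62, 12 and 50 in the same order, 243 within the 5 high arrays, 585 with array weights and 47 to 159 with 1 array left out. The 351 in either direction became 116, 164, 17 and 115, then 572, 1323 and 112 to 416. The cause was not tested. Deviations of same-numbered arrays correlated at -0.17, -0.30, -0.47 and 0.14, and 1 of 4 fum arrays correlated best with its own number. Fum replicate 3 correlated at 0.34 and 0.37 with met replicates 1 and 2, the other low arrays. With met replicates 3 and 4 it correlated at -0.47 and -0.44. Such differences between arrays could hide a pairing, so these correlations cannot decide whether the replicate numbers pair the arrays. Single arrays moved 2 members by over 1.5 times, AT3G15260, at -0.30 without fum replicate 2 and -0.65 with it, and 247109_at, at -0.42 without fum replicate 3 and -0.69 with it.
Among list genes, AT4G01700 passed in each alternative fit that gave it a value except the 3 low arrays (adjusted p = 0.351). AT1G33055 failed in the 3 low arrays (0.527), without the intensity trend (0.0524) and with the block (0.0698). The stricter filter on dim probe sets left both genes untested.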

Other observations

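The 220 probe sets of the opposite set, higher in fum, had medians of 0.29, 0.25, 0.51 and 0.38 above their own mean on fum replicates 1 to 4 on the log2 scale, and of -0.51, -0.13, -0.38 and -0.40 on met replicates 1 to 4. Met replicate 2 was the met array nearest to fum in this set, and without it 355 probe sets met the mirrored rule. For the members lower in fum, met replicates 2, 3 and 4 were alike at 0.28, 0.28 and 0.27.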
